A study of Mus musculus with 36 samples.

Results

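The 7 genes described here mark excitatory and inhibitory spinal interneurons by the transmitter they release, and were measured in RNA purified on tagged ribosomes from mouse spinal cord and diaphragm. They are the 3 vesicular glutamate transporters Slc17a6, Slc17a7 and Slc17a8, the GABA-synthesising enzymes Gad1 and Gad2, the vesicular GABA and glycine transporter Slc32a1, and the plasma membrane glycine transporter Slc6a5. They were chosen by gene symbol, with no measured value in the rule, though earlier results of these data were known. All 7 of 7 were among the 18845 genes of the deposited table. The study purified ribosome-bound RNA through a tagged ribosomal protein whose expression needs Cre recombinase, to compare RNA at the nerve-muscle synapse of the diaphragm with RNA of the spinal cord. There were 36 libraries in 12 groups of 3. The 12 spinal cord libraries came from animals carrying ChAT-Cre and the Ribo-tag allele, 12 synapse-enriched diaphragm libraries came from animals of that same genotype, and 12 came from diaphragms of animals with the Ribo-tag allele and no Cre, so that every animal carried the Ribo-tag allele. Each of the 3 kinds of sample was taken at E15.5, an embryonic age, at P0.5 and P10, shortly after birth and later in postnatal life, and in adults labelled 2-month.

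In this purification Cre follows the promoter of choline acetyltransferase, so every cholinergic cell is a source of tagged ribosomes, motor neurons and cholinergic interneurons among them. Spinal interneurons that release glutamate, GABA or glycine load their vesicles with Slc17a6 or with Slc32a1, make GABA with Gad1 and Gad2, and, if glycinergic, take glycine back up with Slc6a5. RNA of such genes in a cholinergic purification can come from other cells carried along or from cholinergic cells that transcribe them. No Cre-negative spinal cord was analysed here, so RNA that was purified and RNA that was carried along cannot be told apart in the cord. In RNA from a tissue, fewer cells of a type and less RNA per cell cannot be told apart either. The labels do not say whether replicates were separate animals, so p-values measure only the spread between these libraries.

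The 12 spinal cord libraries held 63.7 to 71.8 M reads (M, 1000000), the Cre-positive diaphragm libraries whose depth could be recovered 86.0 to 107 M and the 12 Cre-negative ones 68.2 to 93.7 M. Values are CPM, the reads of a gene per 1000000 reads of its library, in which 3 reads were worth 0.0280 to 0.0471 CPM. In every group the library nearest to a weighted sum of its 2 partners was picked and is called intermediate. In each group it lay between its partners for more genes than they did. In the spinal cord this was 45.1% to 53.1% of genes, against 19.1% to 29.8% for the partners. Its weights added to 0.9993 to 0.9996 in the cord. Those fitted for the partners added to 0.9977 to 0.9994 in the cord, so there the sum of weights does not set it apart. Over all 12 groups it lay between its partners for 45.1% to 81.3% of genes, against 2.64% to 35.7% for the partners. Its weights added to 0.9992 to 0.9996 over all groups, while those of diaphragm partners added to 0.9366 to 1.01. In every group only its own fit gave both other libraries a positive weight. In all 4 spinal cord groups the intermediate library was replicate 3. Whether such a library is an independent sample was not tested, and the results that changed when these libraries were left out are given beside their values. The spinal cord label held: the 3 genes for acetylcholine synthesis, vesicle loading and choline uptake, Chat, Slc18a3 and Slc5a7, summed to 261 to 341 CPM in every cord library and to at most 1.92 CPM in any diaphragm library. A list of 10 motor neuron genes summed to 2375 to 2947 CPM in the cord. Rpl22, the ribosomal protein gene that carries the tag, averaged 58.5, 51.1, 40.0 and 37.5 CPM in the cord at E15.5, P0.5, P10 and in the adult.

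All 7 genes are protein-coding. In assembly GRCm38.p6 of the RefSeq gene table they lie at chr7:51621830-51671126 (Slc17a6), chr7:45163921-45176139 (Slc17a7), chr10:89574020-89621249 (Slc17a8), chr2:70561303-70602014 (Gad1), chr2:22621015-22693877 (Gad2), chr2:158607260-158615747 (Slc32a1) and chr7:49906984-49963864 (Slc6a5). The 3 vesicular glutamate transporters are paralogs that differed in the cord by whether they were found above 1 CPM at all, and their promoters are shown for that reason. The 250 bases before the outermost start of each gene follow, 5′ to 3′ on the gene's strand, from RefSeq (GRCm38.p6): chr7:51621580-51621829 on the plus strand for Slc17a6, chr7:45163671-45163920 on the plus strand for Slc17a7, and chr10:89621250-89621499 on the minus strand for Slc17a8. Capitals mark matches to the GC box GGGCGG on either strand.
Slc17a6: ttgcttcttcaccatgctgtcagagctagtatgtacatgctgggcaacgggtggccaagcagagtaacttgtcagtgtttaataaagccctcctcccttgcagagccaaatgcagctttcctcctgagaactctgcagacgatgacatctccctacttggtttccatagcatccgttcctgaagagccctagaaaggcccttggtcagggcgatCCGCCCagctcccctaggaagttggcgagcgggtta
Slc17a7: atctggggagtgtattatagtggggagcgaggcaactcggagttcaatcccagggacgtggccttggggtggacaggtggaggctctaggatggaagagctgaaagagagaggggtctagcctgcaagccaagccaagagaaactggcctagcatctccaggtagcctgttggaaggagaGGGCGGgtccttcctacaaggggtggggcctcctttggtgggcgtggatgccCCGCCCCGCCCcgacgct
Slc17a8: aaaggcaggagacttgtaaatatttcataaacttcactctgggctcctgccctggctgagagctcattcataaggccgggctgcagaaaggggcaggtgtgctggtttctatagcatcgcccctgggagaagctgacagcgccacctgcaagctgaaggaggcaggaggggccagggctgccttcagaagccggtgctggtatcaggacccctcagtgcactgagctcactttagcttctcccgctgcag
The window of Slc17a7 held 3 matches, of which 2 overlap in one run of capitals, the window of Slc17a6 held 1 and that of Slc17a8 held 0. Of 32851 promoter windows of this length in the RefSeq table, 32.7% held at least 1 match. CpG pairs numbered 7, 9 and 5 in the windows of Slc17a6, Slc17a7 and Slc17a8, with a median of 6 over all windows. The promoter windows listed for Gad1 and Gad2 held 17 and 13 CpG pairs, and that of Slc32a1 held 12, but these windows lie within the gene intervals given above rather than before the outermost start. The sequence TATAAA was matched once on either strand in the Gad1 window and in no window of the other 6 genes, against 12.4% of all windows. These matches describe letters only.

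Slc17a6, the main vesicular glutamate transporter of spinal excitatory neurons, was lower at P10 and in the adult than at P0.5. Its level in the cord was 31.4, 24.9 and 30.1 CPM at E15.5, 27.0, 26.4 and 27.7 CPM at P0.5, 19.6, 16.2 and 18.8 CPM at P10, and 14.3, 10.6 and 12.7 CPM in the adult, in replicates 1, 2 and 3. The E15.5 and P0.5 libraries overlapped, all P10 libraries were below both, and all adult libraries were below those of P10. On the log2(CPM + 1) scale the difference was -0.08 ± 0.11 (standard error, SE) from E15.5 to P0.5, with an adjusted p of 0.50 from limma over all genes tested. Slc17a6 then fell by 0.55 ± 0.11 from P0.5 to P10 (adjusted p = 0.00018) and by 0.51 ± 0.11 from P10 to the adult (adjusted p = 0.00054). From E15.5 to the adult it fell by 1.14 ± 0.11 (adjusted p = 4.8e-08), from 28.8 ± 3.5 to 12.5 ± 1.9 CPM (SD, n = 3).

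**Figure D1:**
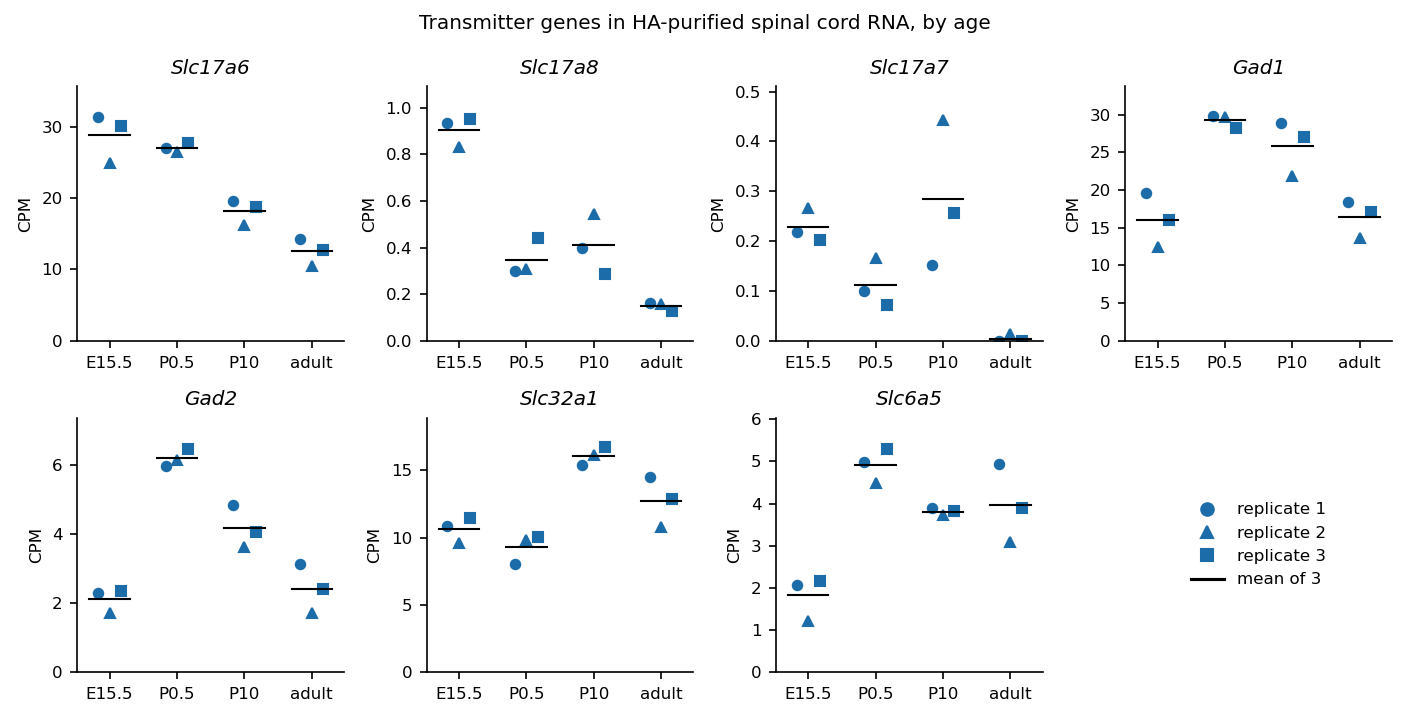
CPM of the 7 transmitter genes in each spinal cord library at E15.5, P0.5, P10 and in the adult, with 1 panel per gene, its own linear axis from 0, a symbol per replicate and a line at the mean of 3. Slc17a6 is lower at P10 and in the adult, Gad1, Gad2 and Slc6a5 are higher at P0.5 than at E15.5, Slc32a1 is highest at P10, and Slc17a7 and Slc17a8 stay under 1 CPM.

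Slc17a8, the vesicular glutamate transporter of a small set of neurons, stayed below 1 CPM in every cord library. Its level was 0.934, 0.832 and 0.953 CPM at E15.5, 0.300, 0.307 and 0.441 CPM at P0.5, 0.398, 0.546 and 0.287 CPM at P10, and 0.163, 0.157 and 0.130 CPM in the adult. The E15.5 libraries were above all others, the adult libraries below all others, and those of P0.5 and P10 overlapped. Slc17a7, the main vesicular glutamate transporter of cerebral cortex, was at 0.218, 0.267 and 0.203 CPM at E15.5, 0.1001, 0.167 and 0.0711 CPM at P0.5, 0.153, 0.443 and 0.256 CPM at P10, and in the adult at 0.0142 CPM, 1 read, in replicate 2 and at 0 in the other two libraries. The P10 level of Slc17a7 was highest in replicate 2, which also had the highest summed level of 8 sensory neuron genes at that age (2.83, 44.3 and 21.9 CPM in replicates 1, 2 and 3) and of 8 muscle genes (68.2, 1052 and 540 CPM). The part of those cells in the Slc17a7 level was not tested. Neither gene passed the filter on low values, so neither was tested with the others. In the fit without a filter, Slc17a8 fell by 0.50 ± 0.07 from E15.5 to P0.5 (adjusted p = 4.6e-05) and by 0.29 ± 0.07 from P10 to the adult (adjusted p = 0.0034), and the change from P0.5 to P10 was 0.06 ± 0.07 (adjusted p = 0.47). In that fit Slc17a7 differed by -0.14 ± 0.07 from E15.5 to P0.5 (adjusted p = 0.082), rose by 0.20 ± 0.07 from P0.5 to P10 (adjusted p = 0.018) and fell by 0.35 ± 0.07 from P10 to the adult (adjusted p = 0.00074).

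Gad1 and Gad2, which encode the enzymes that make GABA from glutamate, moved alike: both rose from E15.5 to P0.5, and both fell from P10 to the adult. Gad1 was at 19.6, 12.4 and 16.1 CPM at E15.5, 29.9, 29.7 and 28.3 CPM at P0.5, 28.8, 21.8 and 27.0 CPM at P10, and 18.4, 13.7 and 17.03 CPM in the adult. The E15.5 and adult libraries overlapped and all lay below every library of P0.5 and P10, which overlapped each other. Gad1 rose by 0.85 ± 0.15 from E15.5 to P0.5 (adjusted p = 0.00020), differed by -0.18 ± 0.15 from P0.5 to P10 (adjusted p = 0.28), and fell by 0.63 ± 0.15 from P10 to the adult (adjusted p = 0.0023). Gad2 was at 2.30, 1.73 and 2.34 CPM at E15.5, 5.96, 6.15 and 6.47 CPM at P0.5, 4.85, 3.63 and 4.06 CPM at P10, and 3.14, 1.72 and 2.40 CPM in the adult. Unlike Gad1, its P10 libraries were all below its P0.5 libraries. Its E15.5 and adult libraries overlapped, as those of Gad1 did. Gad2 rose by 1.21 ± 0.13 from E15.5 to P0.5 (adjusted p = 1.1e-06), fell by 0.48 ± 0.13 from P0.5 to P10 (adjusted p = 0.0041), and fell by 0.61 ± 0.13 from P10 to the adult (adjusted p = 0.00090). The fall from P0.5 to P10 was -0.44 with an adjusted p of 0.062 when the intermediate libraries were left out. From E15.5 to the adult Gad1 differed by 0.04 ± 0.15 (adjusted p = 0.80) and Gad2 by 0.12 ± 0.13 (adjusted p = 0.43).

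Slc32a1, the transporter that loads both GABA and glycine into vesicles, did not follow the GABA-synthesising enzymes at birth. Its level was 10.9, 9.62 and 11.5 CPM at E15.5, 8.08, 9.85 and 10.03 CPM at P0.5, 15.4, 16.1 and 16.8 CPM at P10, and 14.5, 10.8 and 12.9 CPM in the adult. The P10 libraries were above all others, and neighbours in the order of the other three ages overlapped. The difference from E15.5 to P0.5 was -0.18 ± 0.10 (adjusted p = 0.13), after which Slc32a1 rose by 0.73 ± 0.10 from P0.5 to P10 (adjusted p = 8.1e-06). From P10 to the adult it fell by 0.33 ± 0.10 (adjusted p = 0.011), a call that was lost with other scalings of the libraries (-0.13, adjusted p = 0.22, with median-of-ratios size factors), without the intermediate libraries (adjusted p = 0.098) and without adult replicate 2 (adjusted p = 0.066). From E15.5 to the adult the difference was 0.23 ± 0.10 (adjusted p = 0.0505).

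Slc6a5, the neuronal glycine transporter that marks glycinergic neurons, rose by 1.08 ± 0.14 from E15.5 to P0.5 (adjusted p = 5.3e-06). Its level was 2.07, 1.22 and 2.17 CPM at E15.5, 4.98, 4.49 and 5.29 CPM at P0.5, 3.89, 3.72 and 3.82 CPM at P10, and 4.93, 3.09 and 3.90 CPM in the adult. All E15.5 libraries were below all others, and the adult libraries overlapped those of both P10 and P0.5. The later steps were -0.30 ± 0.14 from P0.5 to P10 (adjusted p = 0.061) and 0.03 ± 0.14 from P10 to the adult (adjusted p = 0.85). The P10 step passed in a fit of those 2 ages alone (adjusted p = 0.0054), and the adult step was 0.32 and called with quantile scaling (adjusted p = 0.0285). From E15.5 to the adult Slc6a5 rose by 0.82 ± 0.14 (adjusted p = 5.3e-05), so that among the 5 tested genes it alone was called higher in the adult than at E15.5 and Slc17a6 alone was called lower.

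Of the 5 genes that passed the filter of 1 CPM in 3 libraries, 3 were called from E15.5 to P0.5, all higher, where 72.3% of the 13373 genes tested were called. From P0.5 to P10, 1 rose and 2 fell, with 78.7% of all genes called. From P10 to the adult, 4 fell and 0 rose (1 rose with quantile scaling, which lost Slc32a1), with 67.9% of all genes called, and from E15.5 to the adult 1 rose and 1 fell, with 84.4% of all genes called. A call was thus common for any gene, and with 5 members these counts do not set them apart from the background. The median difference of the 5 genes in these comparisons was 0.85, -0.30, -0.51 and 0.12, beside a median over all genes of -0.13, -0.08, -0.16 and -0.38. The negative medians over all genes depended on scaling by library total: with median-of-ratios size factors they were 0.00, 0.00, 0.01 and 0.02. The share of all calls that were higher moved with it from 38.6% to 50.5%, from 44.7% to 50.01%, from 34.7% to 52.7% and from 31.1% to 50.7%. Under that scaling all 5 genes were called from E15.5 to the adult: Slc17a6 was lower by -0.69 (adjusted p = 4.1e-06), while Slc32a1 was higher by 0.66 (adjusted p = 1.1e-05), Gad1 by 0.49 (adjusted p = 0.0041), Gad2 by 0.44 (adjusted p = 0.0045) and Slc6a5 by 1.16 (adjusted p = 6.1e-07). Thus a fall of Slc17a6 to the adult and a rise of Slc6a5 were called under both scalings, and the calls of the other three depended on the scaling.

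**Figure D2:**
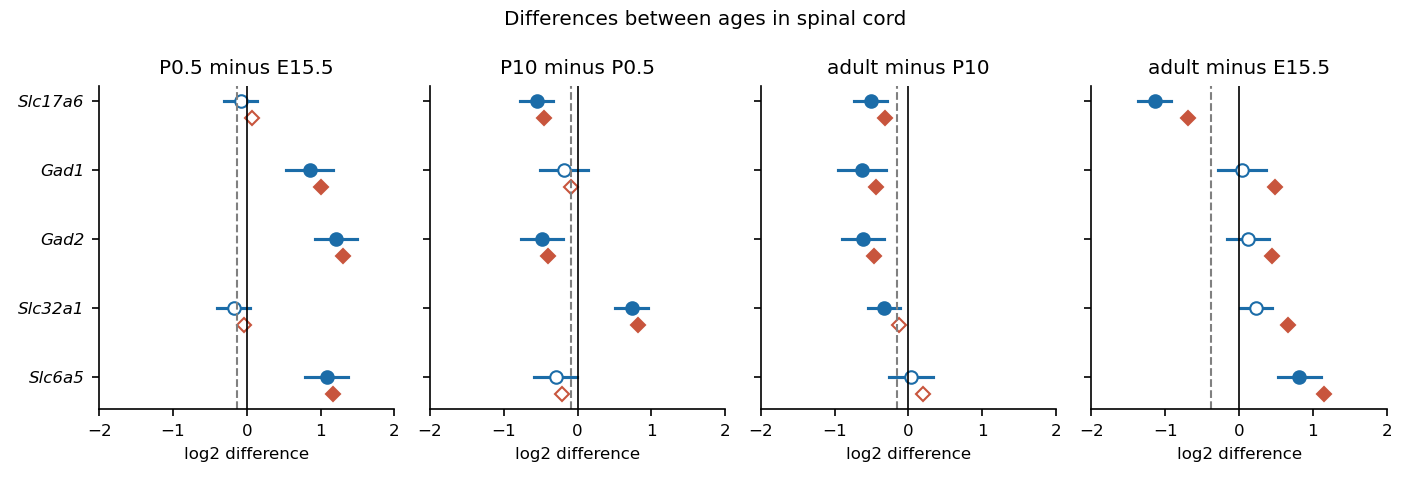
Difference in log2(CPM + 1) between ages in the spinal cord for the 5 tested genes, as circles with the 95% confidence interval of the fit scaled by library total; diamonds give the value with median-of-ratios size factors, filled symbols had an adjusted p under 0.05, the solid line is 0 and the dashed line is the median of all genes under total scaling. In the adult minus E15.5 panel every diamond is filled and lies to the right of its circle, while only the circles of Slc17a6 and Slc6a5 are filled.

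Within an age, replicate 2 had the lowest Slc17a6 and the lowest Slc6a5 at all 4 ages, and the lowest Gad1 and Gad2 at E15.5, at P10 and in the adult. This order did not hold for every gene and age: at P0.5 the lowest library was replicate 3 for Gad1 and replicate 1 for Gad2 and Slc32a1, at P10 it was replicate 1 for Slc32a1, and Slc17a7 and Slc17a8 were highest in replicate 2 at P10. The highest library exceeded the lowest by 1.58 times for Gad1 at E15.5 and by 1.82 times for Gad2 in the adult, but by only 1.06 times for Gad1 at P0.5. Across the 12 cord libraries the Pearson correlation of log2(CPM + 1) was 0.95 between Gad1 and Gad2, 0.77 between Gad2 and Slc6a5, and 0.72 between Gad1 and Slc6a5, whereas Slc32a1 correlated at 0.07 with Gad1, -0.07 with Gad2 and 0.15 with Slc6a5. These correlations describe 12 libraries that share 4 ages and their depth. Slc17a6 correlated at 0.72 with Slc17a8 and at -0.49 with Slc32a1. The genes outside the set with the most similar profile over these libraries were Tor2a, Map4k3 and Ap1m1 for Slc17a6 (r of 0.988, 0.986 and 0.985), Wipi2, Map2k5 and Pdxp for Gad1 (0.961, 0.958 and 0.956), LOC108167321, Tssc4 and Slc6a17 for Gad2 (0.974, 0.970 and 0.969), Rab3gap1, Got1 and Klf13 for Slc32a1 (0.959, 0.955 and 0.947) and Agt, Pou6f1 and Sord for Slc6a5 (0.964, 0.963 and 0.957). For the low genes they were Eef1akmt2, Stard3nl and Trnt1 for Slc17a8 (0.983, 0.982 and 0.979) and Krtcap2, Smim26 and Cd9 for Slc17a7 (0.923, 0.910 and 0.908).

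As a measure of non-cholinergic RNA the 7 genes were set against the cholinergic genes of the same library. Together they took 0.00606% of reads at E15.5, 0.00772% at P0.5, 0.00689% at P10 and 0.00482% in the adult. Their summed level was 67.4, 51.0 and 63.4 CPM at E15.5, 76.3, 77.1 and 78.3 CPM at P0.5, 73.1, 62.5 and 70.9 CPM at P10, and 55.4, 40.0 and 49.0 CPM in the adult. All P0.5 libraries were above all others, and the adult libraries overlapped those of E15.5 but not those of P10. This sum was 19.3% ± 1.3, 25.7% ± 2.3, 24.4% ± 0.72 and 15.3% ± 2.4 (SD, n = 3) of the summed level of Chat, Slc18a3 and Slc5a7 in the same order of ages.

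Which cholinergic gene served as the reference decided the direction of the adult minus E15.5 ratio for the 4 inhibitory genes, and not for Slc17a6 and Slc17a8. Chat, which encodes the enzyme that makes acetylcholine and whose promoter drives Cre, was at 15.8, 16.2 and 15.7 CPM at E15.5, 12.8, 10.4 and 11.3 CPM at P0.5, 73.8, 56.9 and 63.9 CPM at P10, and 68.1, 62.3 and 63.3 CPM in the adult. Chat rose by 2.40 ± 0.09 on the log2 scale from P0.5 to P10 (adjusted p = 2.4e-12). Slc18a3, the vesicular acetylcholine transporter encoded within the same locus, fell by 0.73 ± 0.08 at that step (adjusted p = 3.8e-07), from 253 ± 21 to 152 ± 9.3 CPM (SD, n = 3). The ratio of Gad1 to Chat was 1.01 ± 0.24 at E15.5, 2.56 ± 0.26 at P0.5, 0.399 ± 0.021 at P10 and 0.253 ± 0.029 in the adult (SD, n = 3). All libraries of P10 and the adult were below all of E15.5 and P0.5.

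Relative to Chat, 6 genes could be tested, since Slc17a7 was at 0 in 2 libraries. The log2 ratio differed among ages for all 6 by an exact permutation test over the 12 libraries, with adjusted p-values of 9.7e-05 for Slc17a6, Slc17a8, Gad1 and Gad2, 0.00070 for Slc32a1 and 0.00071 for Slc6a5. The smallest unadjusted p that the 15400 distinct assignments of libraries to ages allow is 6.5e-05. From E15.5 to the adult the log2 ratio to Chat changed by -3.23 for Slc17a6, -4.63 for Slc17a8, -1.98 for Gad1, -1.87 for Gad2, -1.78 for Slc32a1 and -0.88 for Slc6a5. Relative to Slc18a3 the same change was -0.75 for Slc17a6 and -2.15 for Slc17a8, but 0.50 for Gad1, 0.61 for Gad2, 0.70 for Slc32a1 and 1.60 for Slc6a5. Relative to the sum of the 3 cholinergic genes it was -1.22, -2.61, 0.03, 0.15, 0.24 and 1.13 in the same order. Thus the glutamate transporters were lower in the adult against each of these 3 references, and the 4 inhibitory genes were lower against Chat and higher against Slc18a3.

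**Figure D3:**
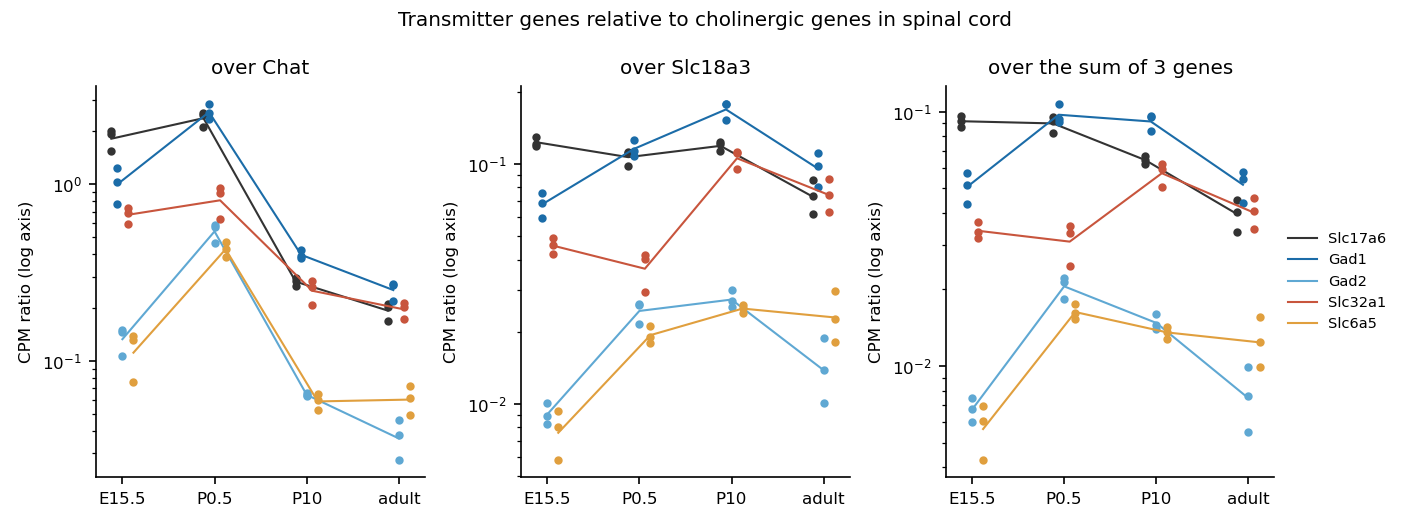
Ratio of CPM of 5 transmitter genes to Chat, to Slc18a3 and to the sum of Chat, Slc18a3 and Slc5a7 in each spinal cord library, on logarithmic axes, with points for libraries and lines through the geometric means of 3. The lines over Chat drop between P0.5 and P10, where Chat itself rose, and those over Slc18a3 do not drop there.

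Other genes of the same pathways were read from lists and are given by their counts. A list of 13 genes for handling GABA and glycine also held Slc6a8, a creatine transporter gene. Of these 13 genes, 8 rose and 1 fell from E15.5 to P0.5, with a median of 0.43, where 27.9% of all genes rose and 44.4% fell. From P0.5 to P10, 2 rose and 7 fell, with a median of -0.23, where 35.2% of all genes rose and 43.5% fell. From P10 to the adult 0 rose and 9 fell, with a median of -0.62, where 23.6% of all genes rose and 44.3% fell. The share called in either direction was near that of all genes at each step. Slc6a11, a GABA transporter of glia, rose by 1.03 ± 0.12 from E15.5 to P0.5 (adjusted p = 3.3e-06) and fell by 1.40 ± 0.12 from P10 to the adult (adjusted p = 1.8e-07). Of 12 genes that make, convert or take up glutamate or glutamine, 4 rose and 3 fell from E15.5 to P0.5, 4 rose and 6 fell from P0.5 to P10, and 4 rose and 7 fell from P10 to the adult. Among these, the glutaminase gene Gls2 rose by 1.30 ± 0.11 from P0.5 to P10 (adjusted p = 3.7e-08) and by 1.25 ± 0.11 from P10 to the adult (adjusted p = 1.4e-07), opposite to Slc17a6.

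All transcription factors of these interneurons that could be tested were lower at P10 than at P0.5, a step at which 43.5% of all genes fell. From E15.5 to P0.5, 27.9% of all genes rose and 44.4% fell. Of 14 factors of inhibitory interneurons 9 could be tested: 7 rose and 0 fell from E15.5 to P0.5, and 0 rose and 9 fell from P0.5 to P10. Their summed level was 29.5 to 35.0 CPM at E15.5, 56.0 to 59.6 CPM at P0.5, 11.3 to 12.5 CPM at P10 and 6.77 to 7.53 CPM in the adult. Pax8 rose by 2.22 ± 0.13 to P0.5 (adjusted p = 1.1e-09) and fell by 2.47 ± 0.13 to P10 (adjusted p = 9.4e-11), and Tfap2b fell by 2.58 ± 0.11 to P10 (adjusted p = 6.0e-12). Of 15 factors of excitatory interneurons 8 could be tested, of which 3 rose and 4 fell to P0.5 and 0 rose and 8 fell from P0.5 to P10. Tlx3, which directs dorsal excitatory neurons, rose by 0.74 ± 0.10 to P0.5 (adjusted p = 1.1e-05) and fell by 1.70 ± 0.10 to P10 (adjusted p = 5.2e-10), and Lmx1b fell by 1.52 ± 0.10 (adjusted p = 1.2e-09). From P0.5 to P10 the tested inhibitory factors fell, Gad2 fell, Slc32a1 rose, and Gad1 and Slc6a5 were not called.

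Glial genes and muscle genes moved with age in the same libraries, and their part in the values of the transmitter genes was not tested. The 10 oligodendrocyte genes summed to 143 to 181 CPM at E15.5, 1011 to 1090 CPM at P0.5, 15980 to 21410 CPM at P10 and 2563 to 4276 CPM in the adult, none at 0, and 10, 9 and 0 of them rose at the 3 steps while 0, 0 and 10 fell. Of all genes, 27.9%, 35.2% and 23.6% rose at those steps and 44.4%, 43.5% and 44.3% fell. The 8 astrocyte genes summed to 176 to 219, 444 to 454, 1571 to 1629 and 2319 to 2356 CPM at the 4 ages. The 8 muscle genes summed to 1397 to 3200 CPM at E15.5 and 1160 to 5290 CPM at P0.5. Their sum was 68.2 to 1052 CPM at P10 and 9.20 to 19.2 CPM in the adult. The source of this muscle RNA in the spinal cord was not tested. The cholinergic sum stayed at 286 to 341, 277 to 327, 261 to 304 and 313 to 317 CPM. The oligodendrocyte sum and the cholinergic sum were both lowest in replicate 2 at every age, as were Slc17a6 and Slc6a5.

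**Figure D4:**
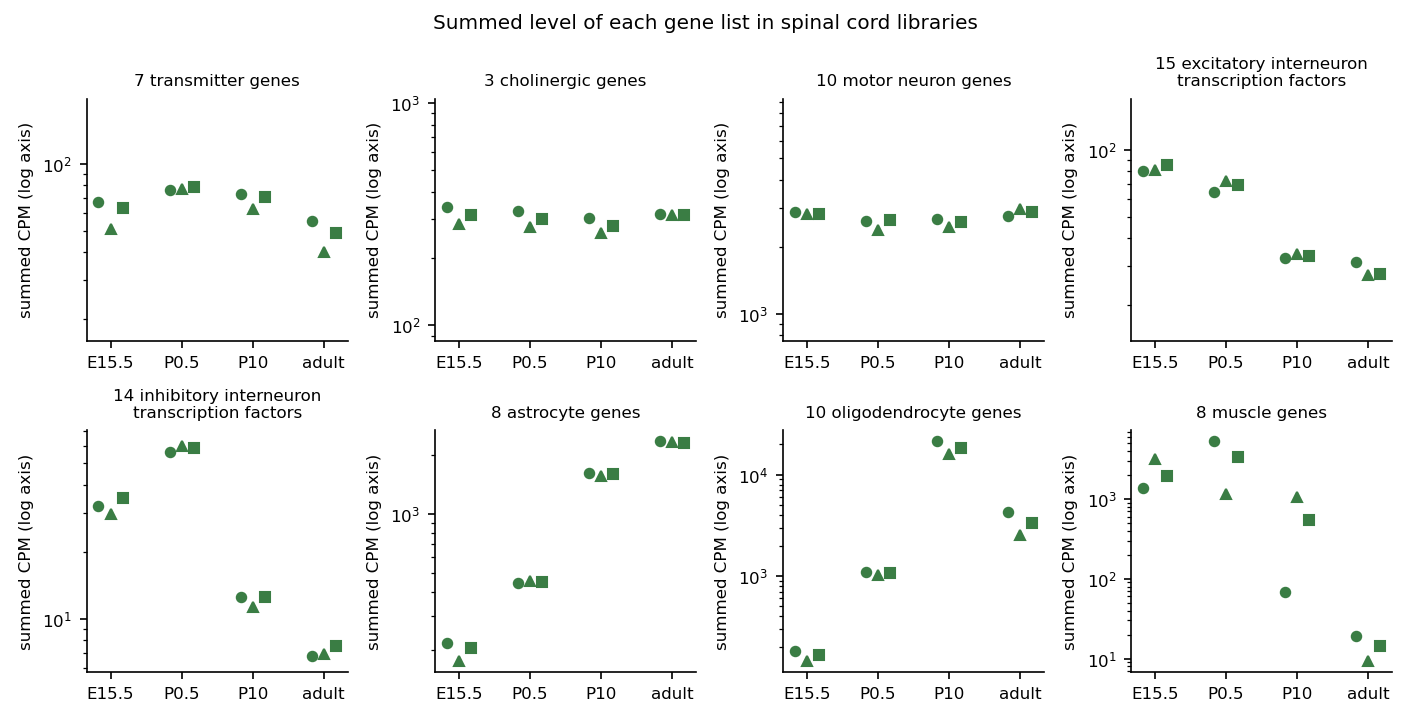
Summed CPM of 8 gene lists in each spinal cord library by age, on logarithmic axes, with a circle, triangle and square for replicates 1, 2 and 3. The transmitter and cholinergic genes move little beside the oligodendrocyte genes, which peak at P10, and the muscle genes, which are lowest in the adult.

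Against the diaphragm, the cord held far more of 5 of the 7 genes at every age. Slc32a1 had 9860 reads over the 12 cord libraries and 2 reads over the 24 diaphragm libraries, both in adult Cre-negative replicate 3, and Slc6a5 had 2970 reads in the cord and 1 in the diaphragm. With the group of Cre-positive diaphragm libraries at 0 and 3 reads per library as the floor, Slc32a1 was at least 325-fold higher in the cord at E15.5, 519-fold at P10 and 427-fold in the adult, and Slc6a5 at least 55.5-fold at E15.5 and 123-fold at P10. No bound is given at P0.5, where the depth of 1 Cre-positive library could not be recovered, nor for Slc6a5 in the adult, where 1 library held its read. Gad1 was at 0 in all 12 Cre-negative diaphragm libraries and in 7 of the 12 Cre-positive ones. Its lowest cord library (12.4 CPM) was 52.5 times its highest diaphragm library (0.236 CPM, E15.5 Cre-positive replicate 1). The corresponding ratio was 14.2 for Gad2, with both libraries adult, and 2.25 for Slc17a6, whose 2 libraries differed in age. They were adult cord replicate 2 (10.6 CPM) and E15.5 Cre-negative diaphragm replicate 1 (4.69 CPM). The lowest Slc17a6 level in the cord at E15.5 was 24.9 CPM.

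In the fit of cord against Cre-positive diaphragm, the 5 genes that passed the filter had differences of 1.48 to 4.92 on the log2(CPM + 1) scale over the 4 ages. They passed it through the cord alone, since none was above 0.24 CPM in Cre-positive diaphragm, so that their higher level in the cord was fixed by the filter and is given as a size only. Of 14831 genes tested, 73.6% were called at E15.5, 75.3% at P0.5, 73.0% at P10 and 74.8% in the adult, in either direction. The median difference of all genes was 0.58, 0.80, 0.63 and 0.72 under total scaling and 0.11, 0.22, 0.20 and 0.23 with median-of-ratios size factors. The share of calls that were higher in the cord moved from 70.8% to 54.8% at E15.5, from 75.6% to 58.5% at P0.5, from 72.8% to 58.7% at P10 and from 73.9% to 58.6% in the adult. Without a filter, Slc17a8 was higher in the cord by 0.79 at E15.5 (adjusted p = 3.2e-09), 0.39 at P0.5 (adjusted p = 3.2e-05) and 0.43 at P10 (adjusted p = 1.0e-05). Slc17a7 was higher by 0.28 at E15.5 (adjusted p = 0.00016) and 0.25 at P10 (adjusted p = 0.00043), and differed by 0.11 at P0.5 (adjusted p = 0.097). Neither was called in the adult (adjusted p = 0.28 and 0.98): Slc17a8 was at 0.130 to 0.163 CPM in the cord and at 0.0187 to 0.180 CPM in Cre-positive diaphragm, and Slc17a7 was at 0 in all 6 adult diaphragm libraries and had 1 read in the cord. Against Cre-negative diaphragm Slc17a7 was not higher in the cord at E15.5, with means of 0.387 CPM in that diaphragm and 0.229 CPM in the cord. At P10 these means were 0.227 and 0.284 CPM. For Slc17a8 at P0.5 Cre-negative diaphragm, at 0.425, 0.0630 and 0.208 CPM, overlapped the cord, at 0.300, 0.307 and 0.441 CPM. At E15.5, at P10 and in the adult, Slc17a8 was higher in every cord library than in every Cre-negative diaphragm library.

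**Figure D5:**
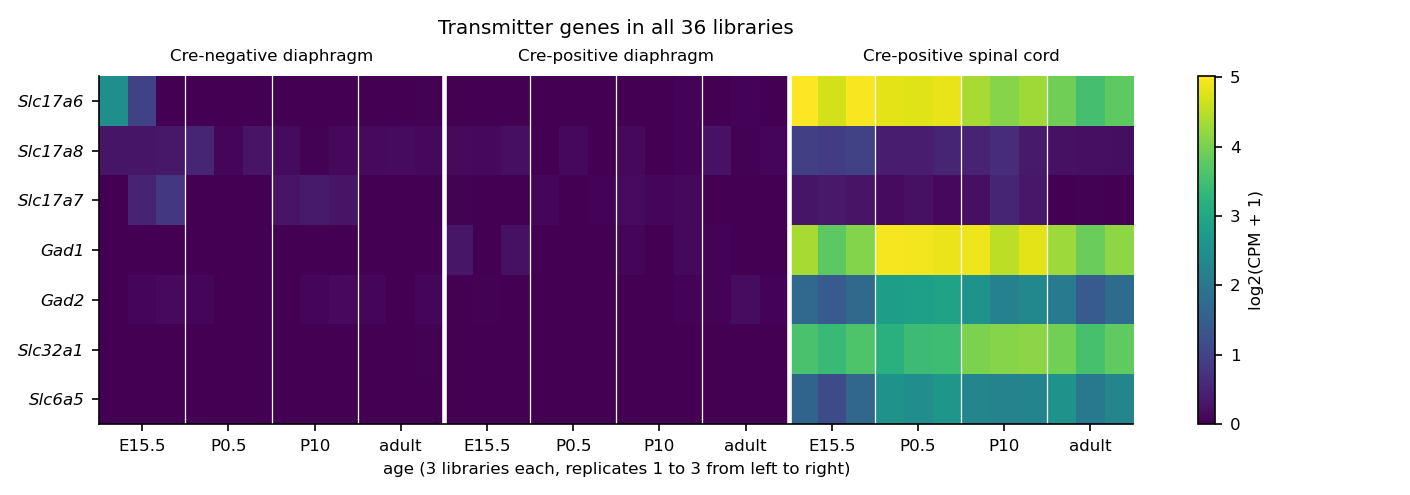
Heat map of log2(CPM + 1) for the 7 transmitter genes in all 36 libraries, grouped by tissue, Cre and age, with replicates 1 to 3 from left to right. The spinal cord block is bright for Slc17a6, Gad1 and Slc32a1 at every age, and the brightest diaphragm cell is Slc17a6 in Cre-negative E15.5 replicate 1.

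The exception in the diaphragm was Slc17a6 in Cre-negative E15.5 muscle, at 4.69, 0.971 and 0 CPM in replicates 1, 2 and 3, which are 384, 78 and 0 reads. In Cre-positive E15.5 muscle it had 1, 0 and 0 reads, and in the other 18 diaphragm libraries at most 4. At E15.5 the Cre-negative libraries thus ranged from none to the highest diaphragm level of any of the 7 genes. Replicate 2 of this group was its intermediate library, best written with a weight of 0.230 on replicate 1 and 0.770 on replicate 3. Slc17a7 ran the other way over the same libraries, at 0, 0.411 and 0.751 CPM. Chat, Slc18a3 and Slc5a7 were at 0 in all 3 of them.

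Other neuronal genes of the lists, named after their values were seen, were ordered like Slc17a6 over these 3 libraries. Since replicate 2 lay close to a weighted mean of the others, a gene that differed among them was mostly ordered either up or down from replicate 1 through 2 to 3. Pou4f1, a factor of sensory and dorsal excitatory neurons, was at 7.01, 1.77 and 0 CPM, Isl2 at 3.52, 1.11 and 0 CPM, and Prrxl1 at 1.26, 0.137 and 0 CPM. Others ran the opposite way, like Slc17a7. Among them were the dorsal excitatory factors Tlx3, at 0, 0.809 and 1.56 CPM, and Lmx1b, at 0, 0.523 and 0.688 CPM, as well as Lhx2, at 0, 2.58 and 3.02 CPM. Isl1, at 10.6, 23.4 and 29.1 CPM, and Prph, which encodes a neurofilament protein of peripheral neurons, at 1.75, 31.1 and 41.5 CPM, were also lowest in replicate 1. Over whole lists, the 10 motor neuron genes summed to 42.0, 87.2 and 103 CPM with Mnx1 and Lhx3 at 0, the 15 excitatory factors to 87.2, 69.0 and 61.1 CPM with 8 of the 15 at 0, and the 8 sensory neuron genes to 0.672, 4.10 and 4.67 CPM with 6 of the 8 at 0. Most of the excitatory factor sum was Maf, at 42.58, 25.65 and 20.65 CPM, and Shox2, at 36.34, 37.56 and 35.16 CPM. Which cells these factors came from, and the part of any cell type in the Slc17a6 level, was not tested.

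Between Cre-positive and Cre-negative diaphragm no member passed the filter, so the comparison was made without one. At E15.5, 3 members were called, where 14.0% of 17394 genes were: Slc17a6 was lower in the Cre-positive libraries by -1.16 ± 0.34 (adjusted p = 0.029), Slc17a7 by -0.42 ± 0.12 (adjusted p = 0.024), and Gad1 was higher by 0.18 ± 0.06 (adjusted p = 0.048). At P0.5, 1 was called, where 22.4% of genes were: Slc17a8 was at 0.425, 0.0630 and 0.208 CPM in the Cre-negative libraries and 0.0101, 0.0814 and 0 CPM in the Cre-positive ones, a difference of -0.25 ± 0.08 (adjusted p = 0.042). Gad1 had 21, 0 and 15 reads in Cre-positive E15.5 muscle. The groups overlapped for each of these 4 genes. None of these 4 calls held when the intermediate libraries were left out (adjusted p of 0.51 to 0.75), when only the 2 groups were fitted (0.22 to 0.27) or with edgeR on reads recovered from the values (0.14 to 0.39). The count of called genes over the whole table fell with the intermediate libraries left out, from 2434 to 49 at E15.5 and from 3899 to 39 at P0.5.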

How the data were processed

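RNA bound to tagged ribosomes was sequenced from 36 libraries. The deposited values are CPM, and each library sums to 1000000. Reads were handled with Bowtie2 2.2.5 and RSEM 1.2.12 on mm10, per the submitters' processing notes, which give no role for each tool. CPM was deposited by the authors with no count table used here; whole reads were recovered in 35 libraries (CPM times depth within 0.1 of a whole number), and for Cre-positive P0.5 replicate 3 the size of 1 read could not be told from rounding, so it was left out of the count test.

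The members and gene lists were chosen with earlier results of these data known. Spinal cord ages, cord against Cre-positive diaphragm, and diaphragm with and without Cre were each fitted with limma 3.58.1 (trend, robust) on log2(CPM + 1) over genes at 1 CPM or more in 3 libraries, all ages in one fit, with Benjamini-Hochberg adjustment over all genes at 0.05. No member passed that filter in the diaphragm, so that fit was made without it. A fold on this scale understates changes of low genes. The count test was edgeR 4.0.16 (quasi-likelihood, TMM) on the recovered reads. Ratios to Chat were tested with a two-sided exact permutation test of the sum of squares between ages. Alternatives were a pseudocount of 0.1, no filter, median-of-ratios or quantile scaling, the compared groups alone, the replicate number as a block, each library left out, and the intermediate library of each group left out. Genes named are the members, Chat, Slc18a3, Slc5a7 and Rpl22, up to 4 called genes of a list with the largest differences, and the 3 genes most correlated with each member among those averaging 10 CPM or more in the cord, with the exceptions said in the text. Fits and the permutation were tested on simulated data. Same-numbered replicates did not deviate together (no comparison had every correlation above 0.1), so numbers were not taken as pairs.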

Additional observations from a re-analysis of the deposited data

How the results depend on the processing

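Over 984 recomputed values, 885 kept their direction and side of the threshold, or for counts stayed within 1.5 times. The number of members called from E15.5 to the adult in the cord was 2 of 5 tested, and became 5 with median-of-ratios, quantile scaling or edgeR. With no filter it was 4 of 7. The added calls were Slc17a7 (-0.29) and Slc17a8 (-0.73), which the filter had left out, and no call among the other genes changed. Slc17a6 from E15.5 to P0.5 changed sign to 0.074 with median-of-ratios, 0.0033 with quantile scaling and 0.061 with edgeR, called in none. Against Chat, the adult minus E15.5 log2 ratio changed sign with the sum of 3 cholinergic genes as reference for Slc32a1 (0.24), Gad1 (0.034), Gad2 (0.15) and Slc6a5 (1.13), and with Slc18a3 as reference for the same genes (0.70, 0.50, 0.61 and 1.60).

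Without each library in turn, the adult minus E15.5 difference ran from -0.12 to 0.19 for Gad1 and from -0.031 to 0.27 for Gad2, and the adult minus P10 difference from -0.10 to 0.16 for Slc6a5; sign changes came without E15.5 replicate 2 for Gad1 and without adult replicate 1 for all 3. Without a filter in the diaphragm, the members called at E15.5 numbered 3 and became 0 with quantile scaling, the compared groups alone, the intermediate libraries left out or edgeR, and 0 to 2 without each library in turn; at P0.5 the 1 member called became 0 with median-of-ratios, the compared groups alone, the intermediate libraries left out or edgeR, 2 with quantile scaling, and 0 to 1 without each library. All genes called there went from 2434 to 49 without the intermediate libraries, 533 with edgeR and 1144 to 2539 without each library at E15.5, and from 3899 to 1038 for the compared groups alone, 39 without the intermediate libraries and 2745 to 4140 without each library at P0.5. The cause was not tested for any of these.

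With the replicate block, Slc6a5 from P0.5 to P10 became called (adjusted p = 0.022) and no other member's call in the cord changed. With quantile scaling, Slc6a5 from P10 to the adult became called at 0.32 (adjusted p = 0.0285). Diaphragm values of 1 to 3 reads are not resolved at this depth.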
